A study of Mus musculus with 6 samples.

Results

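Cells of expanded T cell clones were set against cells of single-cell clones within the tumor library of CD8-IFNγRKO mice, whose CD8 T cells lack the IFNγ receptor. A clone was the set of cells that shared the CDR3 nucleotides of their TRA contig and of their TRB contig, taking the contig of each chain with most UMIs. CDR3 is the stretch of a T cell receptor (TCR) chain that varies most between cells, and a UMI is a tag that marks a single RNA molecule. Barcodes with both chains and at least 1 UMI each of *Cd8a* and *Cd8b1* were kept, which left 6402 cells in 543 clones. Clones of 20 or more cells were called expanded, and there were 25 of them with 5678 cells (88.69% of the cells, exact binomial interval 87.89 to 89.46). Another 471 cells (7.36%, 6.73 to 8.02) were the only cell of their clone. The 6149 cells compared came from 12214 barcodes of this library and 47860 barcodes of the 4 RNA libraries in the series, and 253 cells of clones of 2 to 19 cells were in neither group. The members were chosen by clone size, a value measured in these data, so every level given for the groups is a description.

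B16-OVA, a mouse melanoma line that makes ovalbumin, was engrafted in mice of both genotypes, and the tumors were taken on day 12. CD8-IFNγRKO mice carried CD8-Cre, Rosa26Tomato and IFNgR1flox/flox, and control mice carried CD8-Cre and Rosa26Tomato with an intact receptor gene. Sorted cells were CD45+, CD3+, CD8+ and Tomato+ and were pooled from 3 mice of a genotype. Tumor and lymph node each gave 1 RNA library that reads transcripts from their 5′ ends, and each tumor also gave a TCR library. The Cre acts in CD8 T cells, so that tumor cells and other host cells kept their receptor, and no tag in the files tied a cell or a clone to a mouse. Expanded and single cells were therefore 1 sample each, taken from the same library. Cells of a group are not replicates, so nothing was tested and no gene is called changed, and the 95% intervals below cover counting error only.

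T cells that meet their antigen in a tumor divide, so that many cells carry the same rearranged TCR, and they gain granzymes, perforin and cytokines with which they kill. Under lasting antigen they also gain inhibitory receptors such as PD-1 and Tim-3, a state known as exhaustion. T cells that have not responded, and stem-like or memory T cells, keep transcription factors such as TCF1, the product of *Tcf7*, and receptors that guide them through lymph nodes. IFNγ, which CD8 T cells secrete, signals through a receptor whose ligand-binding chain is encoded by *Ifngr1*.

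*Ifngr1*, the gene targeted in these mice, had 227.4 CPM, the UMIs of a gene scaled to a common total of UMIs over the pooled cells, in expanded cells and 489.2 CPM in single cells. Over all barcodes with *Cd8a* and *Cd8b1*, *Ifngr1* stood at 239.0 CPM in the CD8-IFNγRKO tumor, 719.4 CPM in the control tumor, 133.3 CPM in the CD8-IFNγRKO lymph node and 180.3 CPM in the control lymph node. Reads of 5′ ends can come from outside the floxed part, so these levels do not show in which cells the gene had been cut. Expanded cells of the control tumor held 729.3 CPM of *Ifngr1* and its single cells 1166.9 CPM, so that the single cells had the higher level in both tumors.

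The groups differed in depth. Expanded cells had a median of 10158.5 UMIs and 3013.5 genes, and single cells 3858 UMIs and 1497 genes. Ribosomal protein genes took 19.60% of UMIs in expanded cells and 29.72% in single cells, and mitochondrial genes 0.752% and 1.03%. The pooled counts were 63609696 UMIs for expanded cells and 2123828 UMIs for single cells, so that the precision of every ratio is set by the single cells. Barcodes also present in another RNA library made up 4.33% of expanded cells (246 cells) and 5.31% of single cells (25 cells). With each cell thinned to 1600 UMIs, the stem and naive genes described below had a median log2 ratio of -3.38 in place of -3.40, and without the shared barcodes it was -3.38 as well. Other lists described below moved more with thinning. The median of inhibitory receptors went from 2.73 to 3.19 and that of mitosis from 2.18 to 2.90, while that of cytotoxic genes went from 1.84 to 1.74.

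**Figure D1:**
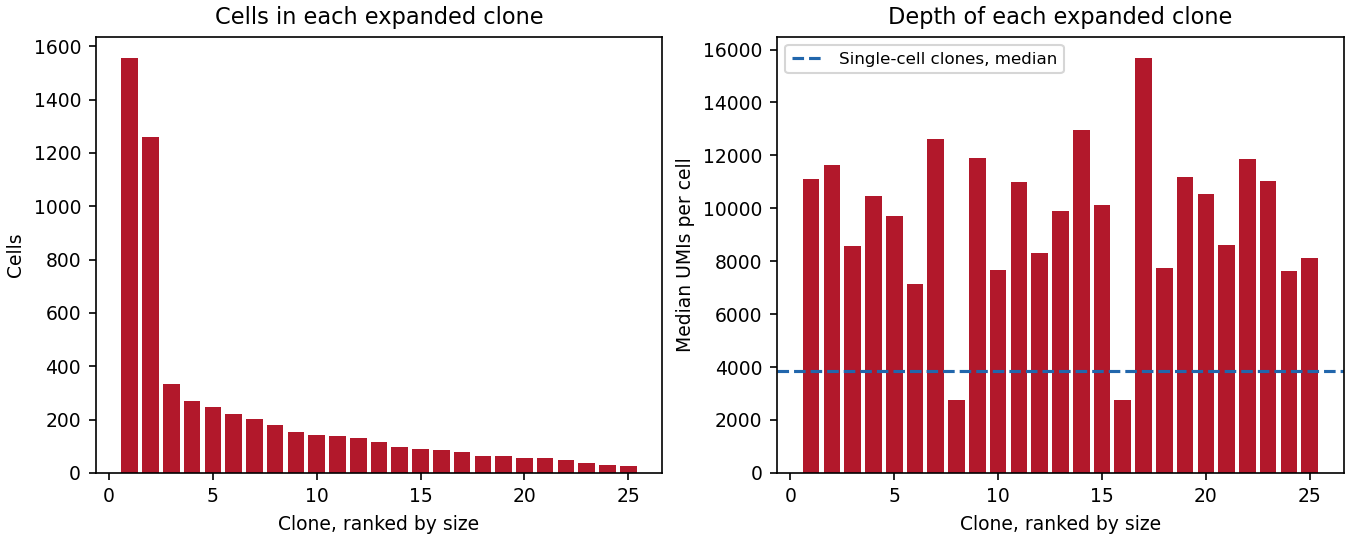
Cells (left, y axis) and median UMIs per cell (right, y axis) of each of the 25 expanded clones, ranked by size on the x axis, with a dashed line at the median of the single-cell clones (3858 UMIs). The 2 largest clones stand far above the rest in size, and the clones ranked 8 and 16 are the ones whose bars end below the line.

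The expanded cells were spread unevenly over their clones. The largest clone had 1558 cells (27.44% of expanded cells), the next 1260 cells (22.19%) and the third 334 cells. The first 2 clones thus held 2818 cells, 49.63% of all expanded cells, and the median clone had 115 cells. No clone had 20 to 24 cells, and the smallest expanded clones had 25 and 29 cells. The CDR3 of both chains of the largest clones is shown because these sequences define the cells that weigh most in the pooled values. They are nucleotides read 5′ to 3′ from the deposited contigs, and capitals mark the first and the last codon.
Clone 1 TRA (TRAV7D-2, TRAJ21): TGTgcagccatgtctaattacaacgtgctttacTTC
Clone 1 TRB (TRBV14, TRBJ1-6): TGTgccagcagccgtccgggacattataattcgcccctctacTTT
Clone 2 TRA (TRAV12D-3, TRAJ39): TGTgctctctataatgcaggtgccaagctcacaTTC
Clone 2 TRB (TRBV13-3, TRBJ1-1): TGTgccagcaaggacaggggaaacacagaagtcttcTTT

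The 25 expanded clones were not 25 independent lineages by their chains. They held 20 distinct TRB and 24 distinct TRA CDR3 sequences, and 9 of them shared a TRB with another expanded clone. Clones 3, 4 and 10 carried 1 TRB, and the TRA of clones 3 and 4 ended in the same 29 bases, which capitals mark in the first 2 sequences here. In the other 2 sequences capitals mark the first and the last codon, as above. The TRA of clones 3 and 4 both used TRAJ7, with different V genes. Chains with the same J segment can end alike, as the TRAJ21 chains of clones 1 and 10 do. The shared end alone therefore does not show that clones 3 and 4 are related.
Clone 3 TRA (TRAV8D-2, TRAJ7): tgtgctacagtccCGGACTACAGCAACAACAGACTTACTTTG
Clone 4 TRA (TRAV7D-5, TRAJ7): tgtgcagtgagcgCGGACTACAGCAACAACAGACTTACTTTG
Clone 10 TRA (TRAV7-4, TRAJ21): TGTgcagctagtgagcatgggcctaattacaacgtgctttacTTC
Clones 3, 4 and 10 TRB (TRBV12-2+TRBV13-2, TRBJ2-5): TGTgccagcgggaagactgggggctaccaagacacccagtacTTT

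A mature T cell can carry a second rearranged TRA, and the rule took only the TRA with most UMIs. Of the 334 cells of clone 3, 292 (87.43%) also carried the TRA of clone 4, and of the 271 cells of clone 4, 251 (92.62%) also carried the TRA of clone 3. None of the 143 cells of clone 10 carried either. The same held for 2 more pairs that shared a TRB. The TRA of clone 19 was found in 167 of 203 cells of clone 7 (82.27%) and that of clone 7 in 55 of 62 cells of clone 19 (88.71%). For clones 13 and 18 these shares were 91.30% and 83.87%, and for clones 15 and 16 both were 0. Over all expanded cells, 16.54% (15.58 to 17.53) had more than 1 TRA, beside 11.68% (8.92 to 14.93) of single cells, and none had more than 2. In the control tumor these shares were 1.59% (1.23 to 2.03) and 10.96% (7.15 to 15.87). All expanded CD8-IFNγRKO cells with more than 1 TRA were in clones 3, 4, 7, 13, 18, 19 and 25. The share of expanded cells thus rests on few lineages. Its interval counts cells and does not cover the spread between clones. More than 1 TRB was found in 2.84% of expanded cells (2.42 to 3.30) and 4.03% of single cells (2.45 to 6.23). In clone 15 every cell had more than 1 TRB, as did 37.86% of clone 11 and 21.18% of clone 16, and no cell of the other expanded clones did. No doublet caller was run. Because extra chains in expanded cells went with certain clones, these shares are not a rate of doublets, and no measure of doublets is given.

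Single cells had chains of their own. Of 471 single cells, 2 carried the top TRA of an expanded clone and 1 carried the top TRB of one, and 43 had a top chain found in some other barcode of the library. No CD8-IFNγRKO clone of either kind had both of its chains in a cell of the control tumor. CDR3 length had the same median of 42 bases for both chains in both groups. Segments were counted with each clone once, and those named here are a selection. TRBV3 (38 clones, 8.07%), TRBV16 (37, 7.86%) and TRBV5 (30, 6.37%) were each used by single-cell clones and by none of the 25 expanded clones. No use in 25 clones allows a share of up to 13.72% (exact upper limit), so a lower share in expanded clones is not shown. The combined call TRBV12-2+TRBV13-2, which is printed as the contig table gives it and may stand for either gene, was made for 6 of 25 expanded clones (24%, 9.36 to 45.1) and 38 single-cell clones (8.07%, 5.77 to 10.9), but those 6 clones carried only 3 distinct TRB sequences. TRAJ21 and TRAJ7 were each used by 4 of 25 expanded clones (16%, 4.54 to 36.1), beside 13 (2.76%, 1.48 to 4.67) and 11 (2.34%, 1.17 to 4.14) single-cell clones. These were not 4 independent clones either, since clones 10 and 15 had the same TRAJ21 chain, and the TRAJ7 clones ranked 3 and 4 mostly carried both TRA.

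Both groups were CD8 T cells by the rule, which required both TCR chains and UMIs of *Cd8a* and *Cd8b1*. Levels of those genes are thus no separate check of identity. *Cd3e*, a subunit of the TCR complex, stood at 1277 CPM in expanded and 976 CPM in single cells, *Cd8a* at 1046 and 723 CPM, and *Cd8b1* at 938 and 884 CPM. Most markers of other cells were at or near 0, with exceptions. *S100a8*, *S100a9* and *Csf3r* of neutrophils and *Cd79a* of B cells had no UMI in either group, and *Cd4* had 5.27 and 14.1 CPM. Of the 5 B cell markers, *Ighm* (12.1 CPM in expanded cells, 112 CPM in single cells) and *Cd79b* (1.62 and 14.6 CPM) were higher in single cells, and the list summed to 4.56 to 67.9 CPM over the expanded clones and 126.2 CPM in single cells. *Pecam1*, of the stroma list, had 3.22 and 31.6 CPM. The 12 myeloid markers summed to 23.5 to 75.0 CPM over the expanded clones and 17.0 CPM in single cells. Without cells that had a UMI of *Cd4* or of 2 or more myeloid markers, the median log2 ratio of stem and naive genes was -3.40 and that of inhibitory receptors 2.88. The part of the B cell and stroma markers was not tested. CD8 cells of the CD8-IFNγRKO lymph node held 230.1 CPM of *Ighm*, 18.7 CPM of *Cd79b* and 48.4 CPM of *Pecam1*. The γδ T cell genes summed to a median of 7.08 CPM over the expanded clones, but *Tcrg-C1*, a constant segment of the TCRγ chain, had 285.0 CPM in clone 7 and 256.5 CPM in clone 19, which share a TRB. The melanoma list reached 43.6 CPM in clone 21. The 154 single cells with an *Ighm* UMI had at most 7 of them.

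Of 3156 genes with at least 50 CPM in either group and 100 UMIs over both, 402 (12.7%) were at least 2-fold higher in expanded cells and 237 (7.51%) at least 2-fold higher in single cells. The median log2 ratio of expanded over single, with 1 CPM added to each, was 0.25 over all these genes, and lists are read beside it. Of the genes past the fold, 62.91% were higher in expanded cells. That share fell to 44.89% when ratios were centred on their median (277 higher in expanded and 340 in single cells). It was 44.69% when TCR, mitochondrial, ribosomal protein and heat shock genes were left out of the totals (362 and 448 genes), where the median log2 ratio of all genes was -0.02. A gene that passed only because it was high in 1 group had to differ, so these counts describe the libraries and support nothing further. The counts of list members below carry the same limit.

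**Figure D2:**
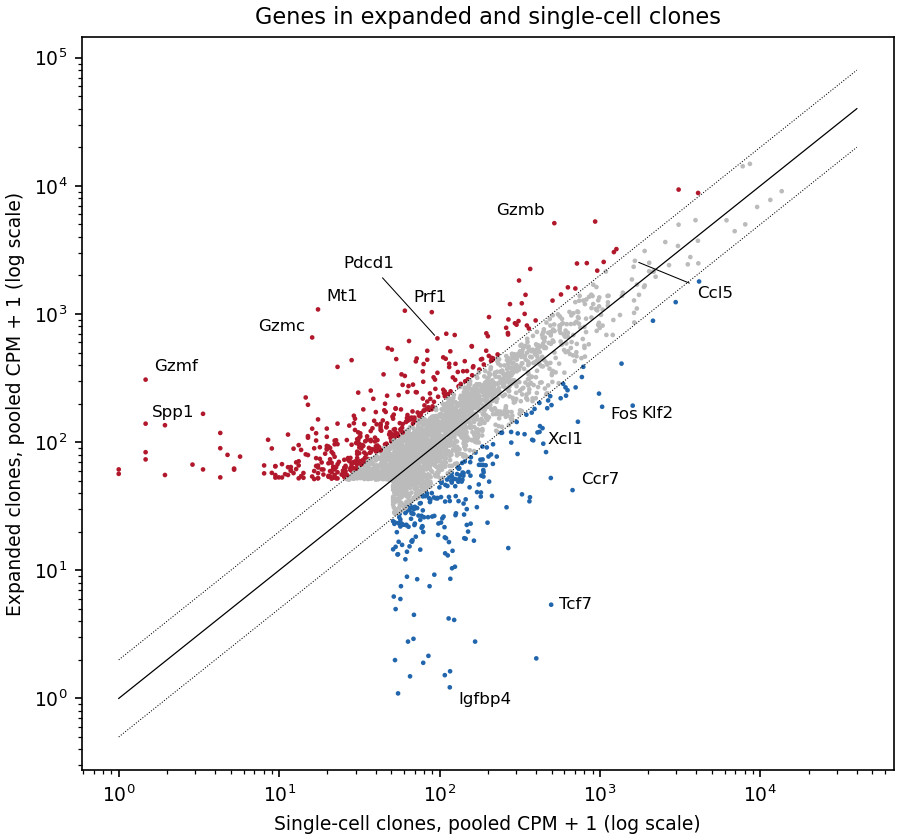
Pooled CPM plus 1 of 3156 genes in single-cell clones (x axis, log scale) and expanded clones (y axis, log scale), with lines at equality and at 2-fold either way. Red points (402) were at least 2-fold higher in expanded clones, blue points (237) at least 2-fold higher in single-cell clones, and the empty lower left corner is the minimum of 50 CPM in either group.

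Genes of stem-like and naive T cells were far lower in expanded than in single cells. Of the 15 of 16 list members that passed the minimum, 14 were at least 2-fold higher in single cells, with a median log2 ratio of -3.40. *Tcf7* had 4.39 CPM in expanded cells (3.89 to 4.93) and 495.8 CPM in single cells (466.3 to 526.7), a log2 ratio of -6.53 (-6.69 to -6.36), with expanded clones between 0.804 and 50.5 CPM. No expanded clone reached the pooled level of single cells. *Tcf7* lies at chr11:52246527-52283383 in the RefSeq annotation of GRCm38.p6, the assembly that mm10 is built on.

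The rest of the list showed how far the difference extended. *Id3*, an inhibitor of helix-loop-helix factors kept by memory T cells, had 0.519 CPM in expanded and 107 CPM in single cells (log2 ratio -6.15, -6.37 to -5.90). *S1pr1*, with which T cells leave tissue along sphingosine-1-phosphate, had a log2 ratio of -4.76 (-5.00 to -4.52), and *Klf2*, the factor that drives *S1pr1*, -3.056 (-3.111 to -3.001). *Ccr7*, a chemokine receptor for entry into lymph nodes, had 41.2 CPM in expanded and 674.3 CPM in single cells (log2 ratio interval -4.09 to -3.91), and *Il7r*, a cytokine receptor for survival, 38.1 and 325.8 CPM (-3.06, -3.18 to -2.94). *Satb1*, a chromatin organiser, had -3.40 (-3.52 to -3.28). *Ltb*, lymphotoxin beta, was the member within 2-fold, at -0.76 (-0.83 to -0.69). Summed over the list, expanded cells held 861.8 CPM, single cells 5649.2 CPM and CD8 cells of the lymph node 7554.8 CPM. By the sum of this list, single cells thus stood nearer to the lymph node than to the expanded cells of their own tumor. Not every list did so. The antiviral list summed to 4137.8 CPM in expanded cells, 4036.1 CPM in single cells and 1164.8 CPM in the lymph node. Gene by gene, the lymph node held 553.7 CPM of *Tcf7* and 644.9 CPM of *Ccr7*.

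The lowest ratios of all genes tested included members of that list, among them *Tcf7*, *Id3*, *Dapl1*, *Klf3* and *S1pr1*. Outside the list they included *Igfbp4* (0.220 CPM in expanded and 115 CPM in single cells), *Nsg2*, *Tmem108*, *Tdrp*, *Treml2* and *Pde2a*. *Igfbp4*, a binding protein of insulin-like growth factors, had a log2 ratio of -6.57 (-6.73 to -6.36) and 433.0 CPM in the lymph node. Each of the genes named here had more than 50 CPM in the lymph node and less than 5 CPM in expanded cells.

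Inhibitory receptors were higher in expanded cells. Of the 7 of 11 members that passed the minimum, 6 were at least 2-fold higher and none was 2-fold lower, with a median log2 ratio of 2.73. *Pdcd1*, which encodes PD-1, had 643.9 CPM in expanded cells (637.7 to 650.2) and 96.1 CPM in single cells (83.3 to 110.2), a log2 ratio of 2.73 (2.54 to 2.94). *Pdcd1* ran from 425.6 to 805.7 CPM over the expanded clones with a median of 622.8 CPM, so that every clone stood above the single cells. *Havcr2*, encoding Tim-3, had a log2 ratio of 3.93 (3.44 to 4.46), and *Lag3*, a receptor for MHC class II, 3.38 (3.11 to 3.67). *Entpd1*, the ectonucleotidase CD39, had 117 CPM in expanded and 3.30 CPM in single cells, a log2 ratio of 4.78 (3.92 to 5.67) that was among the 12 highest. *Ctla4* stood at 2.12 (1.93 to 2.31) and *Tigit* at 1.80 (1.60 to 2.01). *Cd160* was the exception, with 82.5 CPM in expanded and 85.7 CPM in single cells (-0.05, -0.27 to 0.16), and 15 of 25 clones above the single cells. *Cd244a*, *Cd101*, *Cd38* and *Cd200* were under the minimum.

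Cytotoxic genes were also higher in expanded cells, but unevenly between granzymes and between clones. Of the 15 of 18 members that passed, 11 were at least 2-fold higher in expanded and 1 in single cells, with a median of 1.84. *Gzmb*, the most studied apoptosis-inducing granzyme, had 5111 CPM in expanded and 518.9 CPM in single cells (3.30, 3.21 to 3.38). *Gzmb* spanned 2414 to 10682 CPM over the clones, all of them above the single cells. *Prf1*, the pore-forming perforin, had 1060 and 59.8 CPM (4.12, 3.88 to 4.38), with clones from 134.1 to 2023 CPM. *Serpinb9*, which shields the killer cell from its own granzyme B, had a log2 ratio of 2.35 (2.14 to 2.58). *Nkg7* (1.31, 1.26 to 1.37) and *Fasl* (1.44, 1.07 to 1.82), a granule protein and a death ligand, were past the fold as well. *Lamp1*, of the granule membrane, was higher in single cells at -1.09 (-1.26 to -0.91).

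Several granzymes that lie near *Gzmb* on chromosome 14 were among the highest ratios. *Gzmf* (chr14:56205263-56211407) had 306.4 CPM in expanded cells from 19487 UMIs and 1 UMI in all single cells, a log2 ratio of 7.71 (6.41 to 8.25). That rank rests on 1 UMI and on the 1 CPM added, since with 10 CPM added *Gzmf* stood at 4.92 and *Mt1* above it at 5.37. *Gzmf* was at 0 CPM in clone 23, at a median of 107.1 CPM over the clones and at 468.6 CPM in clone 1. *Gzmc* (chr14:56231397-56241647) had 654.6 and 15.1 CPM (5.35, 4.88 to 5.86), with clones from 0 to 1070 CPM. *Gzme* had 55.6 CPM in expanded cells and no UMI in single cells, which makes it at least 39.34-fold higher against a floor of 3 UMIs over the group, and *Gzmd*, under the minimum by a small margin at 47.2 CPM, at least 33.41-fold. *Gzme* had no UMI in 9 of 25 clones and *Gzmd* in 12, while clone 19 held 193.1 and 291.0 CPM. Within this gene group, then, clones 1 and 19 held *Gzmf*, *Gzmc*, *Gzme* and *Gzmd* at over 90 CPM and other clones had no UMI of some, while *Gzmg*, between *Gzmd* and *Gzmf*, was under the minimum at no more than 3.51 CPM in any clone.

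*Gzmk* and *Gzma*, granzymes outside that group, did not follow it. *Gzmk* had 216.8 CPM in expanded and 37.7 CPM in single cells (2.49, 2.18 to 2.82), and clone 8 was the highest at 1106 CPM. *Gzma*, a tryptase, had 158.0 and 142.2 CPM, a log2 ratio of 0.15 whose interval of -0.01 to 0.32 holds 0. *Gzma* varied from 41.4 CPM in clone 19 to 756.6 CPM in clone 10, with 16 clones above the single cells and 9 below.

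Cytokines and chemokines of effector cells were higher in expanded cells, with *Xcl1* as the exception. Of 16 members, 7 passed the minimum, 5 of them at least 2-fold higher in expanded and 1 in single cells, with a median of 2.64. *Ccl5* was the member within 2-fold, with expanded clones on both sides of the single cells. It had 3507 UMIs in single cells, and 273 of 471 single cells had a UMI of it. *Ifng* itself had 448.4 CPM in expanded and 71.1 CPM in single cells (2.64, 2.41 to 2.88), from 198.4 CPM in clone 25 to 1164 CPM in clone 14. *Ccl3* (3.94, 3.59 to 4.33) and *Ccl4* (2.12, 2.001 to 2.238), which draw monocytes and T cells, were higher in every expanded clone than in single cells. *Spp1*, osteopontin, had 138.3 CPM in expanded cells and 1 UMI in single cells (6.57, 5.26 to 7.11). It was above the single cells in 23 of 25 clones, with a median of 46.4 CPM and 1052 CPM in clone 12. *Csf1*, a growth factor for macrophages, had 65.8 CPM from 4184 UMIs and 1.88 CPM from 4 UMIs (4.53, 3.52 to 5.46). *Xcl1*, which draws cross-presenting dendritic cells, had 119 CPM in expanded and 419.5 CPM in single cells (-1.81, -1.91 to -1.71). In clone 10 *Xcl1* nevertheless reached 1000.1 CPM, and 4 of 25 clones were above the single cells.

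Metallothioneins, which bind zinc and other metals, were among the highest ratios. *Mt1* (chr8:94178883-94180327) had 1084 CPM in expanded and 16.5 CPM in single cells (5.96, 5.50 to 6.44), and its neighbour *Mt2* (chr8:94172618-94173567) 165.3 and 2.35 CPM (5.63, 4.68 to 6.56). Every expanded clone was above the single cells for both, with *Mt1* from 139.0 to 1467 CPM and *Mt2* from 17.0 to 222.3 CPM. Of the 12 highest genes, *Ifitm2*, a membrane protein that hinders viral entry, had 60.2 CPM in expanded cells and no UMI in single cells (at least 42.65-fold higher). *Il1r2*, a decoy receptor for interleukin-1, had 82.4 CPM and 1 UMI (5.83, 4.52 to 6.37), and *Igfbp7* 72.3 CPM and 1 UMI (5.64, 4.34 to 6.18). *Serpinb9b*, a relative of *Serpinb9*, had 134.5 CPM and 2 UMIs (6.12, 4.94 to 6.93), and *Gldc*, of the glycine cleavage system, 54.4 CPM and 2 UMIs (4.83, 3.65 to 5.64). Unlike the metallothioneins, these genes were not high in every expanded clone. *Serpinb9b* was at 0 CPM in clones 8, 18 and 24 and at 201.2 CPM in clone 1, and *Igfbp7* was at 0 CPM in clones 16 and 21 and at 126.2 CPM in clone 1.

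**Figure D3:**
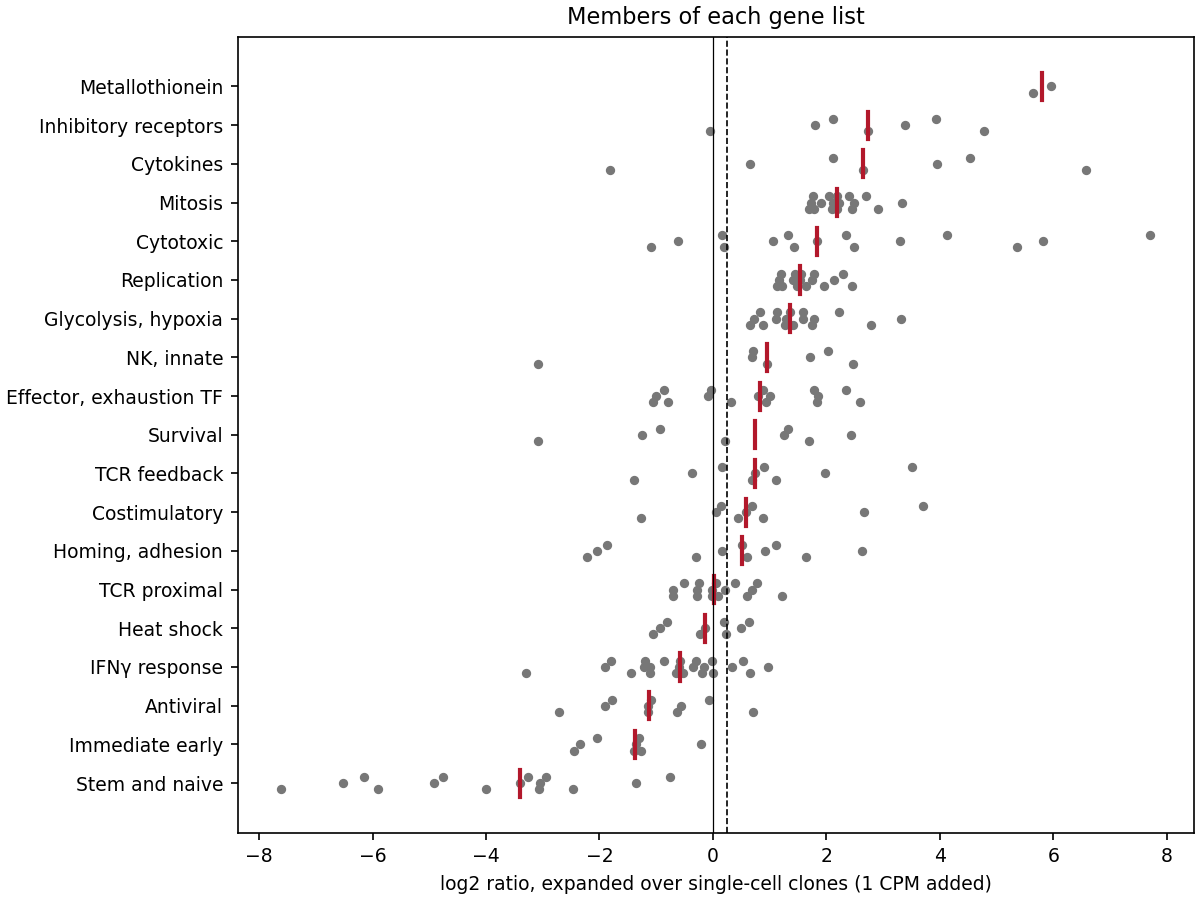
Log2 ratio of expanded over single-cell clones (x axis, 1 CPM added) for each gene that passed the minimum (grey points), by gene list, with the list median as a red bar, a solid line at 0 and a dashed line at 0.25, the median of all genes tested. The medians of the metallothionein, inhibitory receptor, cytokine and mitosis lists lie to the right of the dashed line, although *Cd160* and *Xcl1* lie to its left, and the stem and naive median lies at -3.40.

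Cell division genes were higher in expanded cells without exception among those that passed. All 17 mitosis genes over the minimum, of 19 on the list, were at least 2-fold higher (median 2.18), as were all 16 replication genes, of 23 (median 1.54). *Mki67*, a marker of cycling cells, had 181.1 CPM in expanded and 52.3 CPM in single cells (1.77, 1.51 to 2.05), and its clones stayed between 105.0 and 231.5 CPM. *Cdk1*, the kinase that starts mitosis, had 114 and 10.4 CPM (3.33, 2.78 to 3.94), *Top2a*, a topoisomerase, 243.8 and 71.1 CPM (1.76, 1.53 to 2.001) and *Tk1*, which makes thymidine nucleotides, 160 and 28.3 CPM (2.46, 2.10 to 2.83). *Mcm5*, of the replicative helicase, stood at 1.79 (1.52 to 2.06) and *Pcna*, the sliding clamp, at 1.16 (0.96 to 1.37). The summed mitosis list was above the single cells (541.5 CPM) in all 25 clones, from 1254 CPM in clone 16 to 3218 CPM in clone 6.

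Glycolysis genes stood with them. Of 17 that passed, 13 were at least 2-fold higher in expanded cells and none in single cells (median 1.35). *Slc2a3*, a glucose transporter, had a log2 ratio of 2.79 (2.33 to 3.28), *Tpi1* 2.22 (2.08 to 2.36), *Aldoa* 1.78 (1.71 to 1.86) and *Ldha*, which makes lactate, 1.27 (1.21 to 1.33). *Bnip3*, a mitophagy receptor induced by hypoxia, had 88.3 and 8.004 CPM (3.31, 2.69 to 3.98). The summed list ran from 17436 CPM in clone 8 to 27656 CPM in clone 22, all above the 8669 CPM of single cells.

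Transcription factors were split. Of 16 of 20 members that passed, 6 were at least 2-fold higher in expanded cells and 1 in single cells (median 0.84). *Rbpj*, the effector of Notch, had 2.59 (2.19 to 3.02), *Prdm1*, encoding Blimp-1, 2.35 (1.77 to 2.97), *Bhlhe40* 1.85 (1.71 to 1.99), *Id2* 1.83 (1.65 to 2.02) and *Tox*, a driver of exhaustion, 1.78 (1.44 to 2.15). *Tox* ranged from 14.7 CPM in clone 17 to 244.0 CPM in clone 16, and clone 17 was the one below the single cells (29.7 CPM). *Nr4a1*, an early target of TCR signalling, was higher in single cells at -1.05 (-1.18 to -0.92), and its relative *Nr4a2* stood at 1.01 (0.81 to 1.22). *Eomes* had 36.0 and 73.0 CPM (-0.999, -1.23 to -0.76), while *Batf* (-0.03, -0.20 to 0.14) and *Runx3* (-0.08, -0.26 to 0.10) had intervals that hold 0.

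Immediate early genes, which are switched on within minutes of a stimulus, were higher in single cells. Of 8 of 9 that passed, 7 were at least 2-fold higher there (median -1.38). *Fos* had 187.8 CPM in expanded and 1032 CPM in single cells (-2.45, -2.52 to -2.38), *Zfp36*, which destabilises cytokine mRNA, -2.34 (-2.42 to -2.26) and *Jun* -2.05 (-2.11 to -1.98). No expanded clone was above the single cells for these 3 genes, though clone 16 came to 998.6 CPM of *Fos*. CD8 cells of the lymph node held 976.8 CPM of *Fos*. Heat shock genes had a median of -0.13, with *Hspa1b* at -0.93 (-0.98 to -0.88) and *Dnajb1* at -1.05 (-1.13 to -0.97).

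Genes of the IFNγ response were on balance lower in expanded cells. By label both groups came from mice with CD8-Cre and a floxed *Ifngr1*. In which cells of either group the gene had been cut is not shown. Of 23 of 27 that passed, 8 were at least 2-fold higher in single cells and none in expanded cells (median -0.59), *Ifngr1* being 1 of the 8. *Socs3*, a feedback inhibitor of cytokine receptors, had 36.1 CPM in expanded and 365.4 CPM in single cells (-3.30, -3.42 to -3.19), *Gbp2*, a guanylate-binding protein, -1.91 (-2.06 to -1.75), *Socs1* -1.80 (-1.95 to -1.65) and *Irf1* -1.11 (-1.21 to -1.005). *Ly6c2* had 1792 and 4152 CPM (-1.21, -1.24 to -1.18). *Ly6a* went the other way at 0.98 (0.92 to 1.04), as did the immunoproteasome subunit *Psmb9* at 0.65 (0.54 to 0.76). *H2-D1*, an MHC class I chain, had 2140 and 2144 CPM. Of 10 antiviral genes that passed, which type I interferon induces through another receptor, 6 were at least 2-fold higher in single cells (median -1.12). Among them were *Ifit3* (-2.71, -2.89 to -2.53) and *Irf7* (-1.90, -2.002 to -1.79), while *Ifi27l2a* stood at 0.71 (0.66 to 0.75). Summed over the antiviral list, the groups were close, at 4138 CPM in expanded and 4036 CPM in single cells. By that sum 12 of 25 expanded clones were above the single cells.

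Receptors for homing and costimulation were split between the groups. *Cxcr6*, which holds T cells in tissue, had 515.0 CPM in expanded and 82.9 CPM in single cells (2.62, 2.41 to 2.84). *Cxcr3* had 25.9 and 125 CPM (-2.22, -2.41 to -2.03), *Itgb7* -2.05 (-2.20 to -1.91) and *Cd69* -1.86 (-1.96 to -1.75). On this list 3 of 11 genes were at least 2-fold higher in each group (median 0.50). *Tnfrsf4*, encoding OX40, had 194.6 and 14.1 CPM (3.69, 3.21 to 4.22) and *Tnfrsf9*, encoding 4-1BB, 700.0 and 109.2 CPM (2.67, 2.48 to 2.86), whereas *Cd28* (0.05, -0.09 to 0.20) and *Cd27* (0.14, -0.02 to 0.30) had intervals that hold 0. *Klrc1*, encoding the inhibitory receptor NKG2A, had 684.2 and 123.4 CPM (2.46, 2.29 to 2.64).

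Genes that act next to the TCR differed little. Of 16 members, 15 were within 2-fold (median 0.02), and the sign of that median turned when ratios were centred or the totals changed. *Cd3d* (0.06, -0.00 to 0.12) and *Cd5* (-0.01, -0.18 to 0.17) were level, and *Sh2d2a*, an adaptor of *Lck*, was the member past the fold at 1.21 (1.11 to 1.32). Of 9 of 15 feedback genes that passed, 3 were higher in expanded cells, led by *Rgs16* at 3.51 (3.23 to 3.80), and *Egr1* was higher in single cells at -1.39 (-1.53 to -1.25). Of the survival genes, *Bcl2* was higher in single cells (22.5 and 198.2 CPM, -3.08, -3.24 to -2.92) and its relative *Bcl2a1d* in expanded cells (327.5 and 59.8 CPM, 2.43, 2.19 to 2.69).

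To set cells of unlike depth side by side, each cell was thinned to 1600 UMIs, which left out 67 expanded and 14 single cells. *Tcf7* was then found in 1.27% of expanded cells (0.990 to 1.59) and 55.1% of single cells (50.5 to 59.8), beside 2.70% and 79.4% before thinning. *Pdcd1* was found in 61.9% of expanded cells (60.6 to 63.2) and 7.22% of single cells (5.02 to 9.99), beside 95.1% and 12.5% before thinning, and *Gzmb* in 90.9% (90.2 to 91.7) and 22.1% (18.4 to 26.2). Free RNA gives UMIs in cells that do not express a gene, and the only cells at hand that should lack these genes were 9 macrophage-like barcodes without a TCR contig (median 2411 UMIs). Before thinning 6 of the 9 had *Gzmb*, 5 had *Pdcd1* and 3 had *Tcf7*, and of the 5 that reached 1600 UMIs, 3 had *Gzmb*, 1 had *Pdcd1* and none had *Tcf7*. Of the 9, 6 also had *Cd8a* before thinning, so these barcodes were not free of T cell RNA. Whether it was free RNA or came from a T cell in the same barcode was not tested. With so few barcodes of this kind, no background share could be set. How much of the *Pdcd1* and *Gzmb* shares of single cells and the *Tcf7* share of expanded cells is background therefore remains unknown.

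UMIs of effector genes were concentrated in few single cells. The 48 single cells with most UMIs of a gene held 80.8% of the *Gzmb* UMIs and 94.6% of the *Pdcd1* UMIs, but 29.3% of the *Tcf7* UMIs. *Pdcd1* had a UMI in 59 of 471 single cells and *Gzmb* in 167. The pooled levels of single cells thus average over unlike cells.

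Levels in clones between these sizes showed how the groups are joined. Clones of 2 to 4 cells (65 cells) already held 432.7 CPM of *Pdcd1*, 3337 CPM of *Gzmb* and 179.9 CPM of *Mki67*, nearer to the largest clones (652.9, 4971 and 182.8 CPM in clones of 100 or more) than to single cells. *Tcf7* was 495.8 CPM in single cells, 175.0 CPM at 2 to 4 cells, 48.99 CPM at 5 to 9, 45.1 CPM at 10 to 19, 7.73 CPM at 20 to 49, 9.83 CPM at 50 to 99 and 3.68 CPM at 100 or more. *Gzmf* had no UMI at 2 to 4 cells, 16.6 CPM at 10 to 19, 42.5 CPM at 20 to 49, 112 CPM at 50 to 99 and 335.7 CPM at 100 or more. It did not rise at every step, since all clones of 2 to 19 cells together held 19.6 CPM. The class of 5 to 9 cells thus lay above that of 10 to 19. The 2 largest clones make up most of the class of 100 or more cells. Median depth also rose with clone size, from 4329 UMIs at 2 to 4 cells to 6795 at 10 to 19 and 10224 at 100 or more, and these levels by size were not thinned.

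On either side of the limit of 20 cells most summed lists were close. The 3 clones of 15 to 19 cells held 1208 CPM of the stem and naive list and the 2 clones of 25 and 29 cells 953.5 CPM, with 2418 and 2206 CPM of inhibitory receptors and 12176 and 10691 CPM of cytotoxic genes. The antiviral list was further apart, at 5704 CPM outside and 3639 CPM inside the limit.

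**Figure D4:**
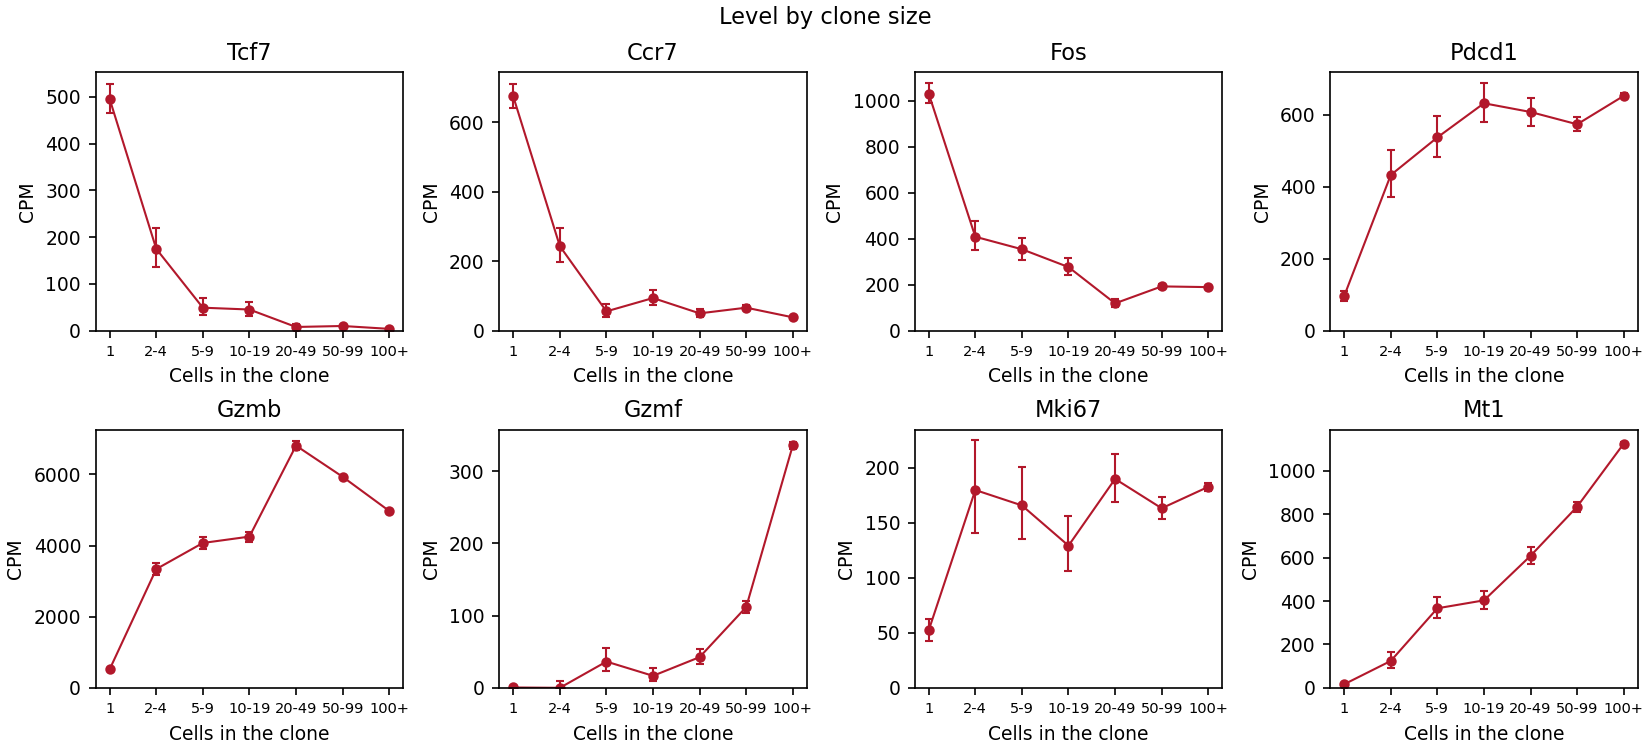
Pooled CPM (y axes, from 0) of 8 genes by the number of cells in the clone (x axes), with exact 95% Poisson intervals as bars. For *Tcf7*, *Ccr7* and *Fos* the point for single-cell clones is the highest, for *Pdcd1*, *Gzmb* and *Mki67* it is the lowest with the main step between 1 cell and 2 to 4 cells, and *Gzmf* (335.7 CPM) and *Mt1* (1126 CPM) are highest in clones of 100 or more.

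The expanded clones ranked 8 and 16 stood apart from the other 23, a pattern noticed after the values were seen. They had 179 and 85 cells, and with medians of 2743 and 2746 UMIs they were the expanded clones below the depth of single cells. Clone 8 (TRAV4-4-DV10, TRBV29) and clone 16 (TRAV6-1, TRBV12-2+TRBV13-2) shared no chain, while clone 16 had the TRB of clone 15. *Fos* stood at 746.8 and 998.6 CPM in these clones and between 82.7 and 277.2 CPM in the other 23. *Cxcr3* was 252.3 and 198.6 CPM (9.33 to 77.9 CPM in the others), and these 2 clones were the ones above the single cells. *Gzmk* was 1106 and 865.3 CPM (86.9 to 530.6 CPM), and *Ccl5*, a chemokine of effector T cells, 16218 and 8897 CPM (1368 to 6859 CPM).

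Interferon genes were also highest in clones 8 and 16. *Ifit3* had 197.5 and 153.2 CPM (9.003 to 46.1 CPM in the others), *Ifit1* 177.3 and 175.9 CPM (3.62 to 48.2 CPM), *Gbp2* 187.4 and 181.6 CPM (36.0 to 73.3 CPM) and *Isg15* 520.4 and 547.6 CPM (117.4 to 332.4 CPM). They were thus above the single cells for *Ifit1*, *Ifit3*, *Gbp2* and *Isg15*. *Prf1* was lowest in them, at 134.1 and 224.1 CPM (543.7 to 2023 CPM in the others), as was *Mt1*, at 191.7 and 139.0 CPM (238.9 to 1467 CPM). *Gzmc* was lowest in them too, at 0 and 2.84 CPM (40.4 to 1070 CPM in the others). *Gzmb* was lowest in clone 16 (2414 CPM), while clone 8 (3901 CPM) was above clone 24 (3025 CPM). Cytotoxic genes did not all move together in these clones, since *Fasl* was highest in them, at 177.3 and 141.9 CPM (43.4 to 115.8 CPM in the others). *Pdcd1* (637.2 and 805.7 CPM) lay near the range of the others (425.6 to 802.0 CPM). *Tcf7* was 50.5 CPM in clone 8 and 11.4 CPM in clone 16, and neither had a UMI of *Ccr7*. Other stem and naive genes were split. *Klf2* was highest in them, at 694.9 and 524.9 CPM (101.5 to 332.0 CPM in the others), as was *Ltb*, at 984.6 and 956.1 CPM. *Satb1* was lowest in them, at 7.21 and 11.4 CPM. Summed, the list was highest in clone 8, at 2034 CPM beside a clone median of 908.8 CPM. Without both clones the stem and naive list had a median of -3.38, inhibitory receptors 2.73, cytotoxic genes 1.86 and mitosis 2.19.

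**Figure D5:**
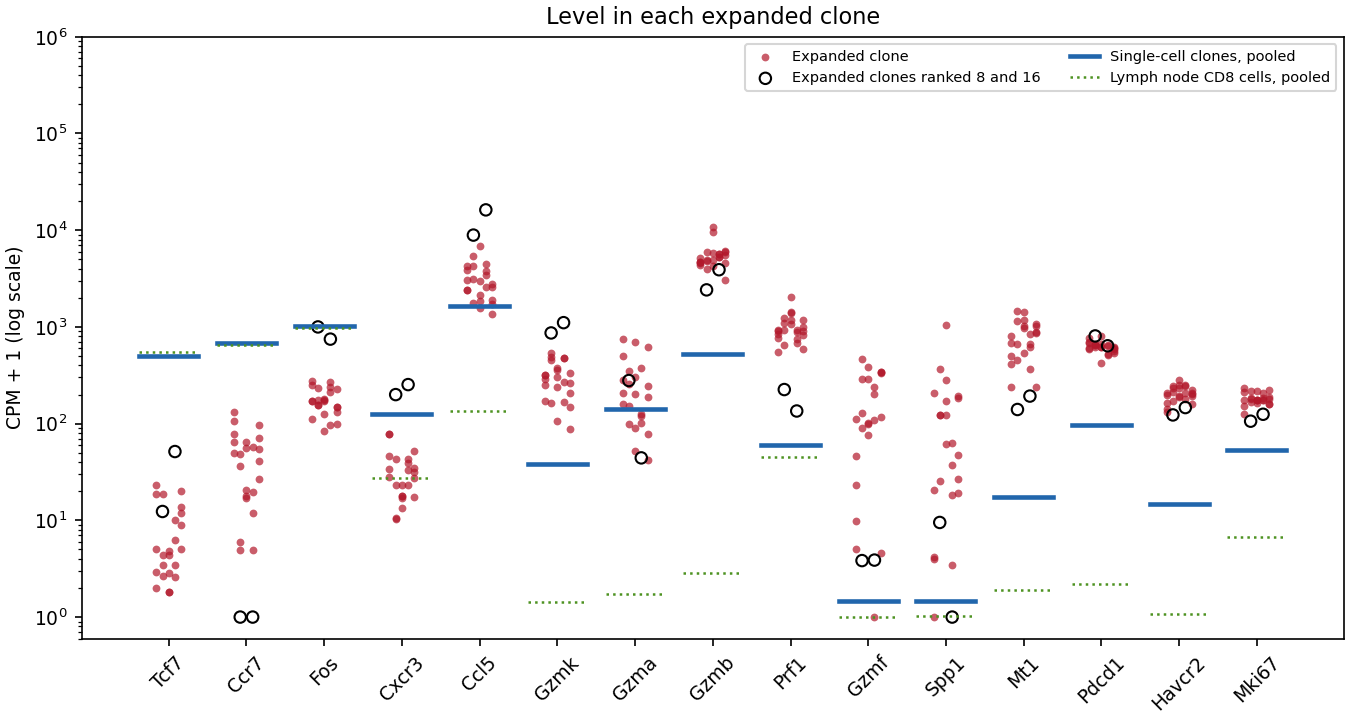
CPM plus 1 (y axis, log scale) of 15 genes in each of the 25 expanded clones (red points; black circles are the clones ranked 8 and 16), in the pooled single-cell clones (blue lines) and in pooled CD8 cells of the CD8-IFNγRKO lymph node (green dotted lines). All clones lie below the blue line for *Tcf7*, *Ccr7* and *Fos* and above it for *Gzmk*, *Gzmb*, *Prf1*, *Mt1*, *Pdcd1*, *Havcr2* and *Mki67*, and clones lie on both sides for *Cxcr3*, *Ccl5*, *Gzma*, *Gzmf* and *Spp1*.

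The same rule in the control tumor gave 4016 cells in 23 expanded clones and 219 single-cell clones. There 228 of 3102 genes (7.35%) were at least 2-fold higher in expanded and 113 (3.64%) in single cells, with a median log2 ratio of 0.12. Depth differed less between its groups (median 6223.5 and 3826 UMIs). Of the 345 genes that were at least 2-fold higher in expanded CD8-IFNγRKO cells and tested in both tumors, 167 (48.4%) were also past the fold in the control tumor, and these were 85.2% of the 196 such genes of the control tumor. For genes higher in single cells the overlap was 105 of 197 (53.3%) and 94.6% of 111. Each genotype was 1 library, so no difference between the tumors was tested.

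The median log2 ratio was -3.40 in the CD8-IFNγRKO and -2.65 in the control tumor for stem and naive genes, 2.73 and 1.58 for inhibitory receptors, 1.84 and 1.35 for cytotoxic genes, 2.18 and 1.30 for mitosis, 1.54 and 0.44 for replication and 1.35 and 0.62 for glycolysis. Each median was taken over the members that passed in that tumor, for example 17 and 12 mitosis genes. A larger ratio was not always a higher level. Inhibitory receptors summed to 2464.6 and 3628.9 CPM in the expanded cells of the 2 tumors and 475.6 and 1152.4 CPM in their single cells. Cytotoxic sums in expanded cells were 13536 and 13863 CPM. Mitosis, replication and glycolysis sums were higher in expanded CD8-IFNγRKO cells than in expanded control cells. *Tcf7* had log2 ratios of -6.53 and -6.14. *Gzma* stood at 0.15 in the CD8-IFNγRKO tumor and -3.99 in the control tumor, where expanded cells had 29.6 CPM and single cells 485.0 CPM. *Fos* had -2.45 and -0.13, with 187.8 and 191.5 CPM in the expanded cells of the 2 tumors and 1032 and 209.5 CPM in their single cells. *Mt1* had 5.96 and 2.98, with 16.5 CPM in single CD8-IFNγRKO cells and 102.8 CPM in single control cells.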

How the data were processed

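The authors aligned 5′ single-cell RNA and TCR reads with Cell Ranger to mm10 (per the submitters' processing notes) and deposited UMI counts per gene and barcode and a contig table per TCR library. Members, gene lists and alternatives were chosen with earlier results of these data known.

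The raw counts of all barcodes were used. UMIs were summed over the cells of each group and divided by their total to give CPM. Log2 ratios had 1 CPM added. Exact 95% Poisson, conditional binomial and Clopper-Pearson intervals were computed, in Python 3.11.15 with NumPy 2.4.6, pandas 2.3.3, SciPy 1.17.1 and Matplotlib 3.10.9. Genes needed 50 CPM in either group and 100 UMIs over both, and TCR segment, mitochondrial and ribosomal protein genes were left out of the ratios. Named genes were the 12 highest and 12 lowest ratios, *Ifngr1* and the list members, some of which are not reported here. Clones 8 and 16 were described after their values were seen. Shares of cells with a UMI were taken after each cell was thinned to 1600 UMIs. Macrophage-like barcodes had at least 2 of 6 myeloid markers and no contig. Gene positions came from RefSeq on GRCm38.p6. Scripts were checked on simulated data. Alternatives changed 1 choice at a time, except that the study's filters were applied together (200 to 6000 genes, at most 3% mitochondrial UMIs and 20% in 1 gene, and a UMI of *Cd2*).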

Additional observations from a re-analysis of the deposited data

Results flagged for a closer look

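Among the named genes, 4 had opposite directions in the 2 tumors, with counting intervals away from 0 in both, while the difference itself was not tested. *Gzmk* had a log2 ratio of expanded over single cells of 2.49 in the CD8-IFNγRKO tumor and -0.60 in the control tumor. *Itga4*, an integrin chain, had 1.11 and -0.64. *Egr1* had -1.39 and 1.15, and *Fosb*, an immediate early gene, -1.36 and 0.68.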

How the results depend on the processing

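Each group was the cells of 1 library, so counting error is all that the intervals hold. The 2123828 UMIs of single cells limit the ratios, except for genes near 0 in expanded cells, where the expanded count is the smaller. No paired analysis was possible because both groups came from the same library and no mouse was tagged. An alternative within 1 sex could not be run, since *Xist* had no UMI in either group. The Y-linked genes summed to 132.4 CPM in expanded cells and 143.6 CPM in single cells, and to at least 47.05 CPM in every expanded clone. No mark of a female mouse was thus seen in either group. Under the 21 alternatives no ranked gene and none of the 4 list medians given here changed sign, whereas the median of genes next to the TCR did, and the split of genes past the fold turned as given above. Of the values of the 24 ranked genes, 417 stayed within their interval and 87 did not. With 10 CPM added, *Gzmf* went to 4.92, *Spp1* to 3.82, *Tcf7* to -5.14, *Igfbp4* to -3.61 and *Tmem108* to -2.67, since their level was near 0 in 1 group. Genes at least 2-fold higher in expanded cells numbered 694 with a minimum of 20 CPM and 1219 with none, and in single cells 436, 1042 and, with TCR, mitochondrial, ribosomal protein and heat shock genes out of the totals, 448. The stem and naive median was -3.10 with 10 CPM added, -3.65 scaled by the median ratio, -3.55 with those totals, -3.22 without the largest clone and -3.53 without the second largest. The inhibitory receptor median was 2.12 with no minimum, 2.48 scaled by the median ratio, 2.53 with those totals, 3.08 as the mean of each cell's CPM and 3.19 with cells thinned to 1600 UMIs. The cytotoxic median was 1.38 with no minimum, 1.59 scaled by the median ratio and 1.64 under the study's filters, which left 5363 expanded and 355 single cells. The mitosis median was 1.79 with 10 CPM added, 2.94 as the mean of each cell's CPM and 2.90 with thinned cells. The cause of these shifts was not tested. Leaving out clones 8 and 16, or barcodes present in another library, was chosen after seeing the data.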

Other observations

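CD8 cells of the same library that had no TRA and TRB pair (3724 cells, median 3517 UMIs) held levels near those of the expanded cells, with 585.7 CPM of *Pdcd1* (577.4 to 594.0), 4682 CPM of *Gzmb*, 240.2 CPM of *Gzmf* and 199.0 CPM of *Mki67*. *Tcf7* (30.5 CPM, 28.7 to 32.5) lay between expanded and single cells. Paired cells without a UMI of *Cd8a* or of *Cd8b1* (488 cells, median 2685 UMIs) had 410.3 CPM of *Tcf7* and 184.0 CPM of *Id3*, together with 1371 CPM of *Gzmb* and 4876 CPM of *Ccl5*.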
